A study of Mus musculus with 4 samples.

Results

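Tox, Tox2 and Tox3 are the paralogs of Tox4, the gene that was deleted in this study. They were taken from the deposited fragment count table by their symbols, and all 3 were found among its 24984 genes. All 3 had a mean of at least 1 CPM (counts per 1e6 counts of the library), as did 11625 genes in all. The data were TTchem-seq libraries, in which nascent RNA that has taken up 4-thiouridine from a brief pulse is isolated and sequenced, so that fragments over a gene, introns included, report its transcriptional output. There were 2 libraries of wild-type (WT) double positive (DP) thymocytes, of the genotype Tox4;F/F, and 2 of conditional knockout (cKO) DP thymocytes, of the genotype Tox4;F/F;Lck+. Both groups thus carried the floxed Tox4 alleles, and the cKO group in addition carried Cre under the Lck promoter, which acts in T lineage cells. The floxed allele was made in C57BL/6 eggs and the mice were young adult littermates. For some other assays the study purified DP cells with beads against CD4, which mature CD4 single positive thymocytes also carry. For others, among them RNA-seq, it sorted DP cells by flow cytometry. How the cells of these libraries were purified is not given in the sources used here. The study calls the libraries of a group biological replicates, while the labels do not name the mice behind each, and p-values measure the spread between these libraries.

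The TOX family consists of 4 nuclear proteins that share an HMG box, a domain that bends and binds DNA, in this family with little regard to its sequence. TOX is induced by T cell receptor and calcineurin signals in thymocytes under positive selection, and it is required for the CD4 lineage. TOX2 is known from follicular helper T cells and natural killer cells, and TOX3 mainly from neurons and epithelial tissue. TOX4 differs from these in being a subunit of the PTW/PP1 phosphatase complex, with the scaffold PNUTS and WDR82, which acts on RNA polymerase II. The comparison asked at which level each paralog is transcribed in DP cells, and whether that level differed where Tox4 was deleted.

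To show what the 4 genes have in common, their RefSeq coding sequences were read from the GRCm38 genome and translated. The proteins had 526 (Tox), 541 (Tox2), 575 (Tox3) and 619 residues (Tox4). Over all aligned residues, Tox4 was identical to Tox at 44.0%, to Tox2 at 43.2% and to Tox3 at 44.7%. In the window of 80 residues with the highest identity, which holds the HMG box, these values were 93.8%, 93.8% and 97.5%. A stretch of 30 codons within that window encoded the same 30 residues in all 4 genes. It is shown because the proteins do not differ in it at all, while the bases that encode them do. Capitals mark bases that differ from Tox, and each sequence is given 5′ to 3′ on the strand of its gene.
Tox: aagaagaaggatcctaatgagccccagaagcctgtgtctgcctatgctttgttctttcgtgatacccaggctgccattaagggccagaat
Tox2: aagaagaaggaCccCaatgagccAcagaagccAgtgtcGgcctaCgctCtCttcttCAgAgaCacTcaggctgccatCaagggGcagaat
Tox3: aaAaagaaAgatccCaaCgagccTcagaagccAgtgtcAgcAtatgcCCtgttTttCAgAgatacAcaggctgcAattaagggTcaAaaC
Tox4: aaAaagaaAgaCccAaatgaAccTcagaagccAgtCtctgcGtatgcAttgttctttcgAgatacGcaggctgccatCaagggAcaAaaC

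The stretch lies in exon 6 of Tox (chr4:6722213-6722302, minus strand), exon 5 of Tox2 (chr2:163315858-163315947, plus strand) and exon 5 of Tox3 (chr8:90254350-90254439, minus strand). In Tox4 it lies in exon 6 (chr14:52287367-52287456, plus strand). Of the 90 bases, 15 differed between Tox and Tox2, 19 between Tox and Tox3 and 16 between Tox and Tox4. In the cKO mice exons 4 to 6 of Tox4 are deleted. From the start of the first to the end of the last of these exons, the least that is deleted, the span is 1872 bp (chr14:52285660-52287531), and the Tox4 stretch printed above is inside it.

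The 4 libraries held between 38429786 and 48690591 fragments. All 11 DP markers had a mean of at least 1 CPM, from 6.39 CPM for Ptcra and 14.3 CPM for Cd1d1 up to 2172 CPM for Themis. Rag1 was between 802 and 1169 CPM and Cd4 between 621 and 715 CPM. Of the 11, Cd8a and Rag1 were called decreased, beside 1.57% of all genes, and neither was called by edgeR (Rag1 adjusted p-value 0.0499 by DESeq2 and 0.291 by edgeR). Summed over its markers, the mature single positive type was at 438 to 509 CPM, the double negative thymocyte at 56.8 to 64.6 CPM, the B cell type at 12.2 to 14.2 CPM and the myeloid type at 10.2 to 13.0 CPM. None of the 6 erythroid, 5 NK and 6 thymic epithelial markers had a mean of 1 CPM. Xist, made from the inactive X chromosome in females, reached 172 CPM in WT replicate 1 and did not exceed 2.36 CPM elsewhere. The study states that its mice were matched by sex, while Xist differed between the WT libraries. The part of this difference in the results was not tested.

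Tox was the most strongly transcribed of the 3 paralogs and the only one that was called changed. Its locus (chr4:6687386-6990723, minus strand, 303 kb) was counted at 683 CPM in WT replicate 1, 728 CPM in WT replicate 2, 992 CPM in cKO replicate 1 and 868 CPM in cKO replicate 2. The groups did not overlap, and the lower cKO library was 1.19 times the higher WT library. The mean of the cKO libraries, 930 ± 88.0 CPM, was above the WT mean of 706 ± 31.5 CPM (SD, n = 2 each), from between 29131 and 38123 fragments per library. On the log2 scale Tox rose by 0.39 (SE 0.0814), a 1.31-fold increase with a 95% interval of 1.18 to 1.47, and the DESeq2 adjusted p-value was 0.000141. In this test 2.14% of the 11625 genes were called increased, and 24.9% had cKO values that were both above the WT values. Among the 249 increased genes, Tox was at rank 189 by size of the change, so most increased genes changed more.

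The call of Tox depended on the test and on 1 library, while its direction did not in the settings run. Its log2 fold change was also 0.39 with the edgeR quasi-likelihood test, which called 0.413% of genes increased, but the edgeR adjusted p-value was 0.108. With limma voom it was 0.0905. Without cKO replicate 1 the log2 fold change was 0.30, with a DESeq2 adjusted p-value of 0.307. Over all settings the adjusted p-value of Tox ranged from 0.000141 to 0.307.

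Tox is a long gene, and increased calls were more frequent among long genes. Of 509 genes of at least 200 kb, 39 were called increased, that is 7.66%, and their median log2 fold change was 0.05. With each library's trend with gene length removed, an alternative chosen after the data were seen, the log2 fold change of Tox was 0.34 (DESeq2 adjusted p-value 0.00188). In bulk libraries such as these, a larger share of cells that transcribe Tox and a higher output per cell cannot be told apart.

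Tox2 was the least transcribed member, and its groups overlapped. At its locus (chr2:163204186-163324169, plus strand) the WT libraries held 16.1 and 16.6 CPM, and cKO replicates 1 and 2 held 19.2 and 16.0 CPM. Only cKO replicate 1 lay above the WT libraries, and cKO replicate 2 lay below both. The mean was 16.3 ± 0.325 CPM in WT and 17.6 ± 2.25 CPM in cKO (SD, n = 2), from between 637 and 806 fragments. Its log2 fold change of 0.11 was smaller than the SE of 0.169 (DESeq2 adjusted p-value 0.866), and it was -0.021 without cKO replicate 1. The 95% interval of the fold change ran from 0.855 to 1.35, and the 1.31-fold change measured for Tox lies within it.

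Tox3 was not called, and its WT libraries differed by a larger fold than those of Tox, Tox2 or Tox4. Its locus (chr8:90247112-90348252, minus strand, 101 kb) was counted at 36.2 CPM in WT replicate 1, 46.2 CPM in WT replicate 2, 44.0 CPM in cKO replicate 1 and 42.8 CPM in cKO replicate 2. Both cKO libraries lay between the WT libraries, which were 1.28-fold apart. The mean was 41.2 ± 7.10 CPM in WT and 43.4 ± 0.846 CPM in cKO (SD, n = 2), from between 1541 and 2249 fragments. DESeq2 gave it a log2 fold change of 0.07 (SE 0.136, adjusted p-value 0.891), with a 95% interval of 0.874 to 1.27 for the fold change. Whether the changes of Tox2 and Tox3 differ from that of Tox was not tested. Without WT replicate 1 it was -0.10 and without WT replicate 2 it was 0.27, so the sign rested on which WT library was kept.

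**Figure D1:**
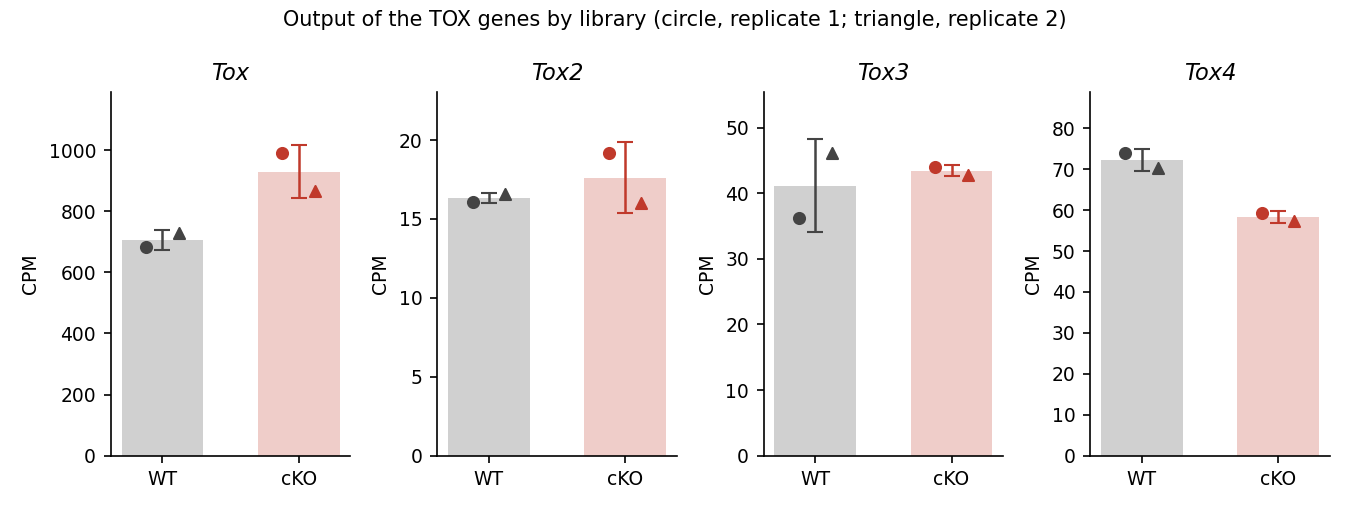
CPM (linear axes from 0) of Tox, Tox2, Tox3 and the deleted gene Tox4 in WT and cKO DP cells. Bars are means, error bars SD over 2 libraries, and points the libraries. The cKO libraries lie above the WT libraries for Tox, at 868 and 992 against 683 and 728 CPM, and below them for Tox4. For Tox3 they lie between the WT libraries, and for Tox2 on either side of them.

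Tox4 itself gives the scale for these values. Its locus (chr14:52279146-52295509, plus strand, 16.4 kb) held 74.04 CPM in WT replicate 1, 70.3 CPM in WT replicate 2, 59.3 CPM in cKO replicate 1 and 57.2 CPM in cKO replicate 2. Both cKO libraries lay below both WT libraries, in the direction the labels require. It fell by 0.31 on the log2 scale (SE 0.0998, DESeq2 adjusted p-value 0.0453), in a test that called 1.57% of genes decreased. Over the settings run that p-value ranged from 0.0359 to 0.792, and it exceeded the threshold with edgeR (0.153). The deleted span makes up at least 11.4% of the locus, so the count measures transcription of the remaining locus as well, and not the loss of the protein.

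**Figure D2:**
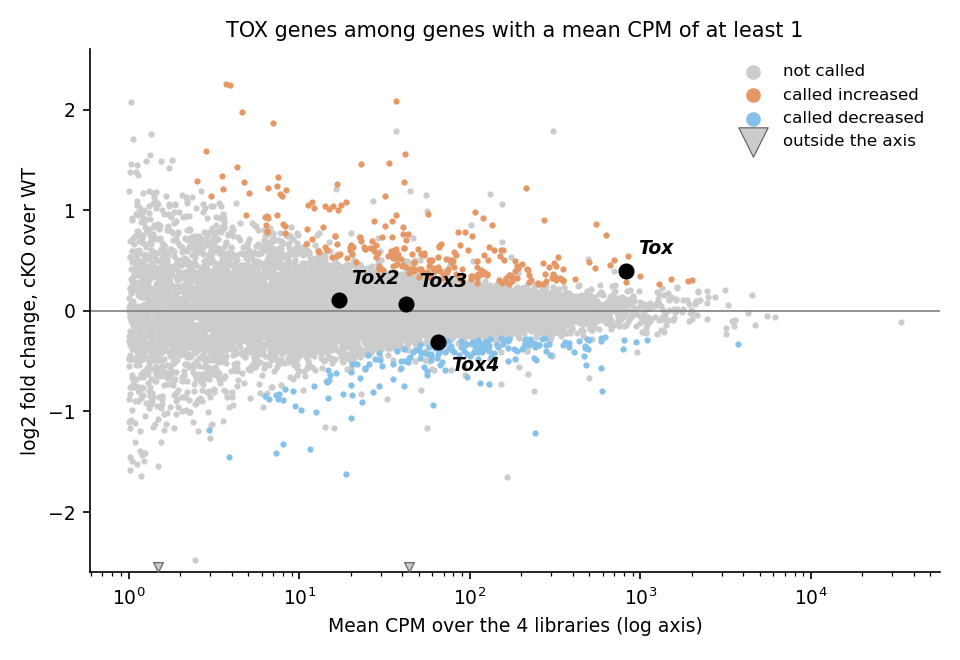
The log2 fold change (cKO over WT) against mean CPM (log axis) for the 11625 genes with a mean of at least 1 CPM, colored by the DESeq2 call. Tox, at 818 CPM and 0.39, lies among the called increased genes, Tox2 and Tox3 lie among genes not called, and 2 genes with values below the axis are drawn at its edge.

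Levels of the 4 genes were compared per length of gene, since a longer gene collects more fragments. The order was Tox4, Tox, Tox3 and Tox2 in all 4 libraries. In WT the densities were 4.41 ± 0.163 CPM per kb for Tox4, 2.33 ± 0.104 for Tox, 0.407 ± 0.0702 for Tox3 and 0.136 ± 0.00271 for Tox2 (SD, n = 2). Among genes with a mean of at least 1 CPM, the mean density of Tox4 was at percentile 80.7, that of Tox at 69.8, that of Tox3 at 22.6 and that of Tox2 at 10.9. By CPM, with no division by length, Tox was at percentile 98.8.

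Tox and Tox4 were closer in density in cKO than in WT. In cKO the density was 3.07 ± 0.290 CPM per kb for Tox and 3.56 ± 0.0890 for Tox4 (SD, n = 2). The density of Tox relative to that of Tox4, a ratio within a library that does not depend on its scaling, was 0.498 and 0.559 in the WT libraries. It was 0.902 and 0.818 in the cKO libraries. These groups could not overlap, because Tox was higher and Tox4 lower in both cKO libraries. The ratio therefore adds no separate support. With the deleted span taken off the length of Tox4 in cKO, a setting added after the data were seen, the cKO ratios were 0.799 and 0.724. In no library did Tox exceed Tox4 on either length. Tox was also 5.26 to 7.51 times as dense as Tox3, and Tox3 was 2.67 to 3.31 times as dense as Tox2, over the 4 libraries.

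**Figure D3:**
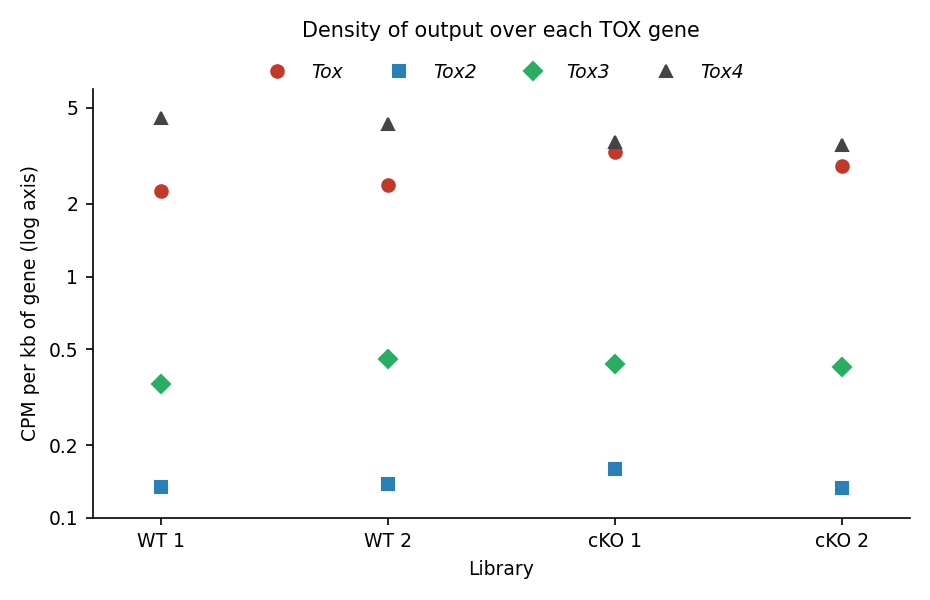
CPM per kb of whole gene length (log axis) for the 4 TOX genes in each library, 1 point per gene and library. Tox4 is highest and Tox2 lowest in every library, and the gap between Tox4 and Tox is smaller in the cKO libraries.

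The summed density of the 4 genes was 7.27 and 7.29 CPM per kb in the WT libraries and 7.49 and 6.92 CPM per kb in the cKO libraries. The cKO libraries thus lay on either side of the WT libraries. The mean density of Tox4 was 0.848 CPM per kb lower in cKO (4.41 against 3.56) and that of Tox was 0.739 CPM per kb higher (2.33 against 3.07). These differences came close to each other only with the whole length of Tox4. Without the deleted span, Tox4 was at 4.02 ± 0.101 CPM per kb in cKO, a difference of -0.388 from WT, and the summed density of the cKO libraries was 7.96 and 7.37 CPM per kb, above both WT libraries. The differences of Tox2 and Tox3 were 0.0107 and 0.0223 CPM per kb. Tox made up 31.0% and 32.9% of the summed density in WT and 43.7% and 41.4% in cKO, while Tox2 made up 1.85% to 2.14% and Tox3 4.92% to 6.27%. This sum depended on the scale. Without division by length it was 835 ± 36.3 CPM in WT and 1049 ± 92.5 CPM in cKO (SD, n = 2), since Tox, the longest gene, then dominates. No p-value is given for sums, because the members were chosen with results known. Protein levels were not measured here.

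**Figure D4:**
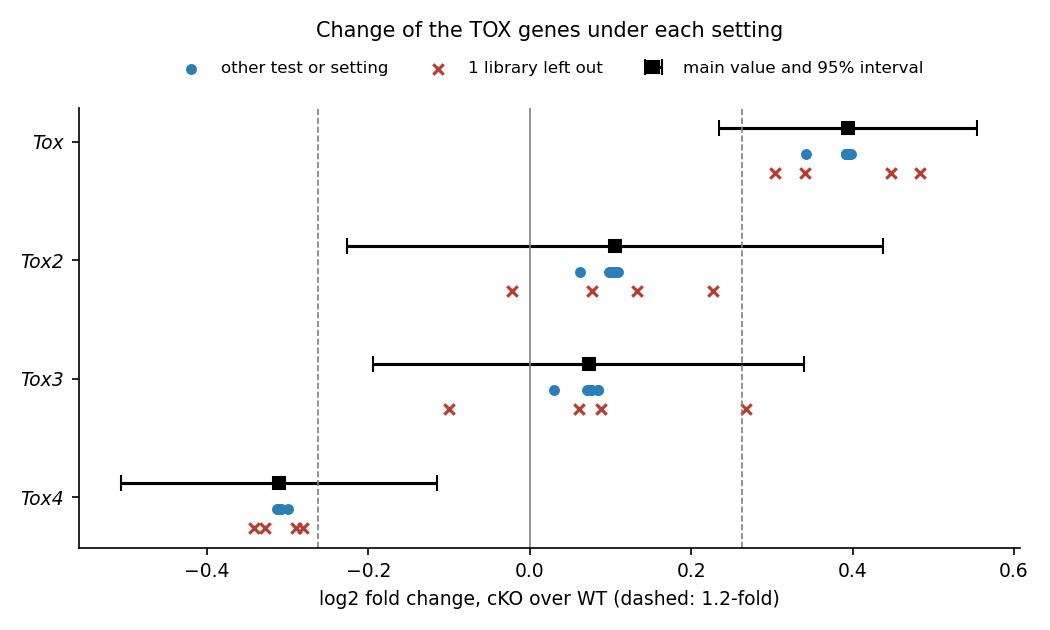
The log2 fold change (cKO over WT) of each TOX gene. Squares are the DESeq2 values with 95% intervals, dots other tests or settings, crosses fits without 1 library, and dashed lines a 1.2-fold change. All points of Tox lie above 0 and all of Tox4 below, while crosses of Tox2 and Tox3 lie on both sides of 0.

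Genes beside the members were examined to see whether a change extended over the region. On either side of Tox, the nearest genes with a mean of at least 1 CPM were Nsmaf, 233 kb away, and Car8, 1151 kb away. Nsmaf had a log2 fold change of 0.04 (DESeq2 adjusted p-value 0.947). Car8 had about 1 CPM and a log2 fold change of -0.72 (SE 0.603), and no adjusted p-value was given for it. Beside Tox2, Mybl2, a cell cycle transcription factor 119.5 kb away, was called increased (log2 fold change 0.52, adjusted p-value 0.0375 by DESeq2 and 0.26 by edgeR), and Oser1 on the other side was not (-0.14, DESeq2 adjusted p-value 0.688). Beside Tox3, Cyld and Chd9 lay 1495 kb and 481 kb away and were not called. No other gene of the count table overlapped Tox, Tox2 or Tox3. The RefSeq annotation places the noncoding gene Gm11802 within Tox on the opposite strand. Since it is not given whether counting used the strand, fragments of genes that overlap may not be told apart. Tox4 overlaps Rab2b and Mettl3, both on the opposite strand, with log2 fold changes of 0.19 and -0.09 (DESeq2 adjusted p-values 0.618 and 0.876).

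The partners of Tox4 in the PTW/PP1 complex were next examined, and 0 of 5 were called by DESeq2 or by edgeR. Over all genes with a mean of at least 1 CPM, DESeq2 called 3.71% in either direction, and edgeR called 0.413% increased and 0.0860% decreased. A count of 0 in 5 genes is thus near the background. Over the table, 1667 genes had an unadjusted DESeq2 p-value under 0.05, and Ppp1r10 was the only partner among them. This gene, which encodes the scaffold PNUTS, was at 143 and 147 CPM in WT and at 180 and 165 CPM in cKO. Both cKO values lay above the WT values, as in 24.9% of all genes with a mean of at least 1 CPM. The difference was 0.24 on the log2 scale (SE 0.0844) with adjusted p-values of 0.0794 by DESeq2 and 0.205 by edgeR. Wdr82, another regulatory subunit, was at 149 and 151 CPM in WT and at 137 and 139 CPM in cKO (log2 fold change -0.12, DESeq2 adjusted p-value 0.567). For Wdr82 both cKO values lay below the WT values, as in 24.0% of those genes. The catalytic subunits Ppp1ca, Ppp1cb and Ppp1cc had log2 fold changes of -0.13, 0.06 and -0.01. The median over the 5 genes was -0.01, beside 0.00 over all genes with a mean of at least 1 CPM.

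Of the calcineurin, NFAT and NR4A genes, which act in the signaling that induces TOX, 1 of 11 was called, beside 3.71% of all genes, with a median log2 fold change of 0.00. The called gene was Nr4a3, an orphan nuclear receptor induced by T cell receptor signals. It was at 70.0 and 73.7 CPM in WT and at 84.9 and 101 CPM in cKO and rose by 0.37 on the log2 scale (SE 0.11, adjusted p-value 0.023 by DESeq2 and 0.183 by edgeR). The related Nr4a1 was at 64.0 and 69.8 CPM in WT and at 61.5 and 69.7 CPM in cKO, with overlapping groups.

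Genes of the CD4 lineage and of positive selection, the setting in which TOX is required, went in both directions. Of 20 genes, 4 were called increased and 3 decreased, beside 2.14% and 1.57% of all genes, with 9 of 20 log2 fold changes above 0 (median -0.06). The increased genes were Bcl2, a survival factor, at 0.64 on the log2 scale (SE 0.105, adjusted p-value 4.01e-07 by DESeq2 and 0.0632 by edgeR), Myb, a transcription factor of immature thymocytes, Runx3, a factor of the CD8 lineage, and Il7r, the IL-7 receptor chain. Myb was at 579 and 584 CPM in WT and at 807 and 844 CPM in cKO, with a log2 fold change of 0.50 (DESeq2 adjusted p-value 3.91e-10, edgeR 0.0322). Runx3 had a log2 fold change of 0.42 and Il7r of 0.36. The decreased genes were the coreceptor chain Cd8a, at -0.54 (SE 0.10, DESeq2 adjusted p-value 1.21e-05; edgeR 0.108), Ccr7, a chemokine receptor of maturing thymocytes, at -0.34, and Tcf7, at -0.33.

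Zbtb7b, which encodes ThPOK and depends on TOX during CD4 lineage choice, was not called. It was at 16.4 and 17.8 CPM in WT and at 17.5 and 9.86 CPM in cKO, which gave -0.33 on the log2 scale (SE 0.232, DESeq2 adjusted p-value 0.586), and only cKO replicate 2 lay below the WT libraries. Gata3, another factor of the CD4 lineage, was at 47.5 and 57.9 CPM in WT and at 55.5 and 54.8 CPM in cKO. The genes Cd69, Itm2a and Cd5, which mark selection, had log2 fold changes of -0.39, -0.56 and -0.22. In each, both cKO libraries lay below both WT libraries, as in 24.0% of all genes. None of the 3 was called (DESeq2 adjusted p-values 0.359, 0.324 and 0.364). They were picked after their values were seen, from the list of 20 genes of which 9 had log2 fold changes above 0. Among 6 markers of mature single positive cells, 2 were called increased, among them Il7r, and 1 decreased, Ccr7. The part of cell composition in the result for Tox was not tested.

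Other genes with an HMG box were counted beside Tox. Of 26 genes, 24 had a mean of at least 1 CPM, of which 1 was called, in the decreasing direction, beside 1.57% of all genes, with a median log2 fold change of 0.06. The decreased gene was Tcf7, which encodes TCF-1, a factor of T cell commitment. It was at 4019 and 4236 CPM in WT and at 3679 and 2919 CPM in cKO (adjusted p-value 0.0174 by DESeq2 and 0.253 by edgeR). Of the 24 genes, 3 had larger log2 fold changes than the 0.39 of Tox, Sox12 at 0.64, Tcf7l2 at 0.51 and Hmgb3 at 0.51. Their groups did not overlap, and none of them was called. Sox12, at a mean of 1.99 CPM, had no DESeq2 adjusted p-value and so could not be called. Over all genes with a mean of at least 1 CPM, Tox was at percentile 92.5 by log2 fold change, and 24.9% had both cKO values above the WT values. Tcf7l2, a relative of Tcf7, was at 345 and 463 CPM in WT and at 559 and 596 CPM in cKO (adjusted p-value 0.216 by DESeq2 and 0.167 by edgeR). Another relative, Lef1, was at 2224 and 2096 CPM in WT and at 2444 and 2213 CPM in cKO, and was not called (log2 fold change 0.11, DESeq2 adjusted p-value 0.577).

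Genes that act with TOX and TOX2 in follicular helper and exhausted T cells were mostly low in DP cells. Of 16 genes, 10 had a mean of at least 1 CPM, and 1 of these was called, beside 3.71% of all genes, with a median log2 fold change of -0.07. The called gene was Bcl6, a repressor that DP cells also transcribe, at 144 and 176 CPM in WT and at 208 and 193 CPM in cKO (log2 fold change 0.33, DESeq2 adjusted p-value 0.0388; edgeR 0.243). Pdcd1, which encodes PD-1, was at 4.28 to 5.50 CPM and was not called. Over the 5 lists, 9 of 68 genes were called, each gene counted once, beside 3.71% of all genes. The lists were chosen with earlier results known and nothing is read from this count. By edgeR, which called 0.413% of all genes increased, 1 of these 9 passed, Myb.

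**Figure D5:**
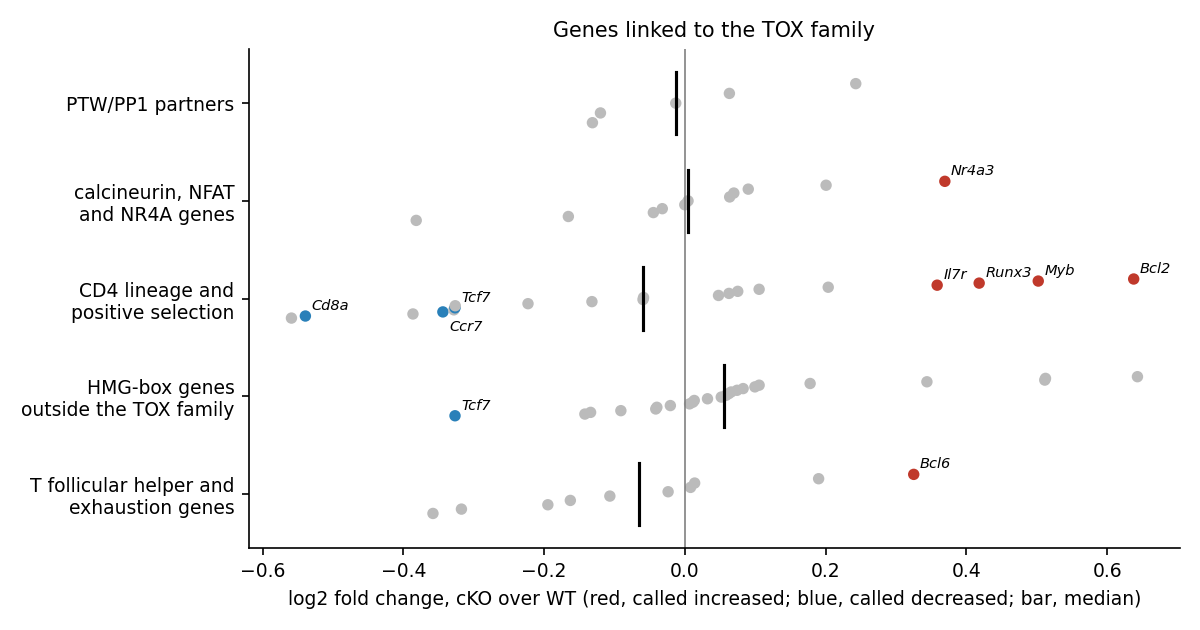
The log2 fold change (cKO over WT) of the genes with a mean of at least 1 CPM in 5 lists linked to the TOX family, with the DESeq2 calls colored and named and the list medians as bars. The medians lie between -0.07 and 0.06, and called genes lie on both sides of 0.

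The genes most like each member in pattern over the 4 libraries were found by the root mean square difference of log2(CPM + 0.5), each gene centered on its own mean. For Tox, Haus1 (0.0134) and Akap2 (0.0163) were the closest, of which Akap2 was called increased (log2 fold change 0.40, DESeq2 adjusted p-value 0.0196). In all, 61 genes lay within 0.05 of Tox. For Tox2 they were Btbd11, Trmo and Golgb1, with 259 genes within that limit, and for Tox3 they were Rxra, Ly6e and Entpd6, with 108. With 4 libraries such likeness is a description only.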

How the data were processed

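TTchem-seq libraries of DP thymocytes (2 WT, 2 cKO) were grouped by their titles. According to the study and the submitters' processing notes, the authors filtered reads with fastp 0.13.1 and aligned them with STAR 2.7.9a to GRCm38. The study states gene counts from STAR, the notes also list featureCounts 1.6.1, and the table has the layout of the latter. The deposited values are expected counts, that is fragments over transcript intervals with introns, of which 8.61% were fractional. Libraries were strand-specific and duplicates were marked with Picard. Whether counting used the strand or left out marked duplicates is not given in the sources used here, and the authors' yeast spike-in was not used. Fragments are not independent molecules.

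Counts were rounded and fitted over all genes with DESeq2 1.42.0, the tool the study names, in R 4.3.3 (Wald test, default size factors and filtering, no covariates). A call required an adjusted p-value (Benjamini-Hochberg) under 0.05, a change of 1.2-fold or more and 1 CPM or more on average. Intervals are the estimate ± 1.96 SE. CPM used the totals of the table. Alternatives used edgeR 4.0.16, limma 3.58.1, other scaling and filters, a replicate block, and each library left out in turn, where a lone library was taken to vary like the other group. The DESeq2, edgeR and limma voom fits were tested on simulated data. Proteins were translated from the longest curated RefSeq coding sequence and aligned with Biopython 1.88. The promoter of Tox and a protein table were not used here.

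Members and lists were chosen with earlier results of these data known. Named genes were the members, Tox4, its PTW/PP1 partners, called genes of each list, nearest neighbors and genes of like pattern. Nr4a1, Zbtb7b, Gata3, Cd69, Itm2a, Cd5, Lef1, Tcf7l2, Sox12, Hmgb3 and Pdcd1 were named in addition after their values were seen. A few genes that these rules would name are not reported here.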

Additional observations from a re-analysis of the deposited data

How the results depend on the processing

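The direction of Tox and Tox4 held in all settings run, and Tox2 and Tox3 were called in none. The log2 fold change of Tox was 0.39 but no longer called with edgeR, limma voom and edgeR with the replicate block, and it ranged from 0.30 to 0.48 without 1 library, where the call was lost without cKO replicate 1. That of Tox4 was -0.31 and not called with edgeR, limma voom, total count factors, filtering off and DESeq2 or edgeR with the replicate block, -0.30 with the length trend removed, and -0.34 to -0.28 without 1 library, with no call in any of those 4 fits. Without 1 library Tox2 ranged from -0.021 to 0.23 and Tox3 from -0.10 to 0.27, the negative values arising without cKO replicate 1 and without WT replicate 1. The summed density of the family had a log2 ratio of -0.02, of 0.33 without division by length, of 0.074 with the deleted span taken off Tox4 in cKO, and of -0.074 to 0.041 without 1 library, where the positive value arose without cKO replicate 2. Against 249 increased and 182 decreased genes, edgeR called 48 and 10, limma voom 50 and 11, a minimum of 1.5-fold left 106 and 44, and fits without 1 library gave 61 to 320 and 28 to 126. Why edgeR and limma voom gave fewer calls was not tested. Leaving out Rn45s, the length trend and the deleted span of Tox4 was chosen after the data were seen.

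Same-numbered libraries were not paired by their labels, and their deviations had a correlation of -0.03. Increased and decreased genes with the replicate block numbered 121 and 72 by DESeq2, and 19 and 9 by edgeR. The log2 fold change with the replicate block in DESeq2 was 0.39 for Tox (adjusted p-value 0.0136), 0.10 for Tox2, 0.08 for Tox3 and -0.31 for Tox4 (0.361).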
